A study of Mus musculus with 4 samples.

Results

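Of the 20171 genes in the table of single mouse oocytes and embryo cells, 127 named genes were abundant at every stage from the oocyte to the 16-cell embryo and stayed steady in level. The rule took genes with a mean of at least 10 copies per 100,000 UMIs (unique molecular identifiers, which tag single RNA molecules) at each of 7 stages and a highest stage mean of at most 3 times the lowest. Predicted gene models and clone names (symbols of the form Gm plus digits, or ending in Rik) were left out. The level minimum alone was met by 367 genes, so 127 were steady and 240 were abundant but not steady. The genes were chosen by their mean level at each stage, so their levels are given below as a description, without a test. The tested question was whether the isoforms that made up each steady level changed.

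The mammalian oocyte stops transcription before fertilisation and hands the embryo a store of maternal RNA. In the mouse, most of that store is degraded around the 2-cell stage, while the embryo starts to transcribe its own genome in a minor wave that begins in the zygote and a major wave in the late 2-cell embryo. Over this exchange, the level of a gene and the make-up of its isoforms can be followed separately. A 3′ end is set when the transcript is cut and polyadenylated, commonly downstream of a signal such as AATAAA or ATTAAA, and the choice among several such ends sets the length of the 3′ untranslated region. A start further upstream or downstream sets which exons a molecule holds.

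The cells came from superovulated C57BL/6J females mated to DBA/2NCrl males by the design text, whereas the sample labels give DBA/2J x C57BL/6J, and no treatment or engineered allele is named. Single cells were taken 20 hours after the ovulation-inducing hormone injection (oocyte), at 22 to 24 hours (zygote), 30 to 32 hours (early 2-cell, E2C), 46 to 48 hours (late 2-cell, L2C), 54 to 56 hours (4-cell), 68 to 70 hours (8-cell) and 78 to 80 hours (16-cell). RNA with a poly(A) tail was reverse transcribed with a cell barcode and UMI, amplified, pooled and read in full length by HIT-scISOseq, a PacBio method that joins several cDNAs into 1 read. Column names tied 121 of the 161 cells to a replicate. There were 10 oocytes and 9 zygotes, then 5 embryos at E2C, 6 at L2C, 5 at the 4-cell stage, 4 at the 8-cell stage and 4 at the 16-cell stage. Cells of 32-cell embryos (22), blastocysts (13) and a mouse embryonic stem cell line (mESC, 5 cells) named no embryo or culture, so they are described without a test. A further sequencing run held 4 intact oocytes, 6 samples of 1/2 oocyte and 6 of 1/4 oocyte. Because poly(A) tails were the handle for capture, a change in tail length and a change in the number of molecules cannot be told apart.

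The depth per cell was lower at later stages, from 166731 to 255836 gene UMIs in oocytes and 194072 to 389775 in zygotes to 6934 to 60831 in 16-cell blastomeres, with 4985 in the shallowest cell of a 4-cell embryo. Summed over the cells of an embryo, the isoform UMIs behind the shares had medians of 131505.5 in oocytes and 161196 in zygotes (1 cell each), 78820 in L2C and 196350 in 16-cell embryos, with the lowest in an L2C (10965) and a 4-cell embryo (17290). A list of 6 oocyte markers summed to a median of 1925 copies per 100,000 in oocytes, 1631 in zygotes, 578 in E2C and 80.8 in L2C embryos, and to 107, 55.1 and 112 in 4-cell, 8-cell and 16-cell embryos. A list of 5 markers of the 2-cell stage summed to a median of 11.5 copies in oocytes, 48.3 in zygotes, 48.5 in E2C (21.3 to 88.1) and 4.41 in L2C (1.48 to 41.4), so it was as high in zygotes as in E2C and mostly lower in embryos labelled L2C. Of 9 markers of cumulus and granulosa cells, which surround the oocyte, 7 were in the table. They summed to 4.42 to 9.81 copies in oocytes and to 0 in every L2C embryo, with 2 of the 7 at 0 in all oocytes.

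The libraries fell into 2 sets. In 14 of the 43 libraries (oocytes 1 to 5, zygotes 1 to 4 and replicate 1 of every later stage) the 1195-base isoform PB.64061.11 made up 32.1% to 37.9% of the UMIs of Dppa3, the steady gene with the highest level, and in the other 29 it made up 1.80% to 12.3%. Both sets occurred at every stage, as the plot of this isoform in all libraries shows. In the cell lists of the study, the barcodes of these 9 oocytes and zygotes carry another numeric suffix than those of the other 10, and the lists do not state what the suffix marks. Of 15901 isoforms of 877 genes that could be compared in oocytes and zygotes, 44 isoforms of 26 genes did not overlap between the sets. Among 99 steady genes compared, 3 did not overlap (Dppa3, Ubb and Uba2). Dppa3 differs by construction, since its isoform parts the sets. The cells were sequenced in 3 batches, which the column names do not give.

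**Figure D1:**
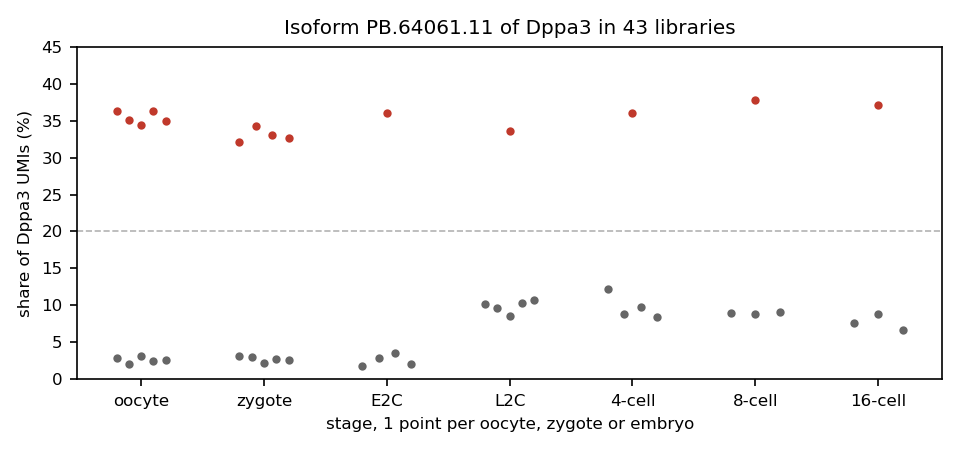
Share of Dppa3 UMIs (y axis, percent) in the 1195-base isoform PB.64061.11, by stage (x axis), with 1 point for each of 43 oocytes, zygotes or embryos and a dashed line at 20%. The 14 libraries above the line lie between 32.1% and 37.9%, the 29 below it between 1.80% and 12.3%, and each stage holds libraries of both kinds.

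The sequences at the 3′ ends show what was exchanged between the early and the late 2-cell embryo. They are printed for 6 genes whose isoforms changed, as 30 bases from the last 50 of the isoform that fell and of the isoform that rose, read 5′ to 3′ from the annotated transcripts of GENCODE M21 (mouse build GRCm38, the same assembly as mm10). Where the last 50 bases hold AATAAA or ATTAAA, the 30 shown surround that word, in capitals, and stop short of the end. Otherwise they are the last 30. For Rab11a on the minus strand the 30 bases lie at chr9:64716612-64716641 in the falling isoform PB.76363.46 and at chr9:64716700-64716729 in the rising PB.76363.70. For Ube2n on the plus strand they lie at chr10:95543287-95543316 in the falling PB.8432.2 and at chr10:95543063-95543092 in the rising PB.8432.4. For Fam104a on the minus strand they lie at chr11:113662833-113662862 (falling, PB.14584.7) and chr11:113663171-113663200 (rising, PB.14584.63), and for Tra2b, also on the minus strand, at chr16:22245756-22245785 (falling, PB.29547.13) and chr16:22246463-22246492 (rising, PB.29547.81). For Pole3 (minus strand, PB.51728.33) and Cwc15 (plus strand, PB.74570.12) only the rising isoform is shown, at chr4:62523732-62523761 and chr9:14510404-14510433.
Rab11a falling: tagccttagtttAATAAActgaatgtttga
Rab11a rising: cccatgtcttaagtcttttgatttggcttt
Ube2n falling: taggtgatccttggtgtccttgccatgttt
Ube2n rising: atcgtatttaaaATTAAAatggatgggaca
Fam104a falling: tataggaagcttgactctgttgcactgaag
Fam104a rising: tgcctgtcggctttccgtctgtatttgagt
Tra2b falling: cttcaagataacATTAAAtctatttctcaa
Tra2b rising: gcaaaaagcaacAATAAAcaagtttgattt
Pole3 rising: aaccggtcatgcgtcatcagtctgcaggtt
Cwc15 rising: tcccagtgttaactttctcagtctctttcc

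The letters were searched in the last 50 bases, on the strand of the transcript only, for AATAAA or ATTAAA (the words can overlap, and a window counts once). An annotated window was found for 53092 of 68012 isoforms in the table, and 73.0% of those held at least 1 of the words. For isoforms of the steady genes the share was 75.8% of 2029. Among the falling isoforms of the 34 gene pairs whose end became shorter at L2C, 12 of 21 with a window held a word, and among the rising isoforms 16 of 31 did. These are counts of letters, and no match says only that these letters are not in the window.

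The steady genes covered a wide range of levels. Their ratio of highest to lowest stage mean ran from 1.32 to 2.99 with a median of 2.07, against a median of 3.83 over all 367 abundant genes, and it was under 1.5 for 7 genes and under 2 for 56. The median level was 29.1 copies per 100,000 UMIs in oocytes, 27.9 in E2C, 28.9 in L2C and 28.9 in 16-cell embryos. The summed level of all 127 genes was 7720 copies in oocytes and 6578 in 16-cell embryos. The stage with the highest mean was the oocyte for 26 genes, the 16-cell embryo for 22 and L2C for 21, and the stage with the lowest mean was E2C for 24, L2C for 22 and the 16-cell embryo for 22. The zygote had the fewest of both, with the highest mean for 9 genes and the lowest for 10.

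Steadiness here is relative to the total UMIs of a cell, whose median was 246466 in zygotes and 32481 in 16-cell blastomeres. Under TMM scaling (trimmed mean of M values, which sets the bulk of genes equal), whose median factor was 0.549 in oocytes and 1.04 in 16-cell embryos, 117 genes met the same rule and 57 of them were among the 127. At the edge of the rule, Ube2n lay just inside (ratio 2.99, stage means of 25.2 to 75.4 copies) with Csnk1e (2.99), and Vapa (3.01) and G3bp2 (3.02) lay just outside. On the minimum, Rae1 (lowest stage mean 10.0) and Tra2b (10.1) were inside, and Creld2 (9.73) and Utp18 (9.67) were outside.

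Dppa3, a maternal factor that protects DNA methylation in the early embryo, was the most abundant of the steady genes. It had a mean of 1117 ± 193 copies per 100,000 (SD, n = 10; lowest 719, median 1201, highest 1322) in oocytes and 779 ± 159 (n = 4; 548 to 901) in 16-cell embryos, and the ranges of those stages overlapped. Its stage means over cells ran between 738 and 1117, a ratio of 1.51, and the mean over mESC cells was 42.5. Cks2, a small subunit of cyclin-dependent kinases, went from 447 copies in oocytes to 171 in 16-cell embryos. Ubb, a polyubiquitin gene, was at 106 copies in oocytes, 130 in E2C and 283 in L2C. The other highly abundant genes were Eif1, which acts in start codon selection (197 to 339 copies), Serf2 (169 to 322), Rps27l, a ribosomal protein paralogue (127 to 224), Snrpg, a core protein of spliceosomal snRNPs (109 to 274), and Oaz1, the antizyme that brakes polyamine synthesis (74.6 to 196).

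Hnrnpf, an RNA-binding splicing regulator, had the smallest ratio of highest to lowest stage mean, 1.32, with stage means of 43.7 to 57.7 copies. Its embryos ranged from 40.9 to 60.9 copies in oocytes and from 49.0 to 70.6 in 16-cell embryos, so the stages overlapped. Next came Nfyc, a subunit of the CCAAT-binding factor NF-Y (1.39), Nsmce4a of the SMC5/6 complex (1.39), Hnrnpu, a nuclear scaffold RNA-binding protein (1.45), Cwc15, a spliceosome component (1.49), Sms, spermine synthase (1.5), Ssu72, a phosphatase of the RNA polymerase II tail (1.5), and Dppa3. Of all 367 abundant genes 34.6% were steady. The list of spliceosome and splicing factors held 14 steady genes among 19 abundant ones, with a median ratio of 2.61 over the 19. The steady genes were 8 of 14 abundant chaperones, 9 of 24 genes of oxidative phosphorylation, 6 of 14 of the ubiquitin and ubiquitin-like system, 6 of 16 of the cell cycle, 3 of 15 of translation, 1 of 15 ribosomal proteins and 0 of 6 proteasome subunits. The median ratio over all 15 abundant ribosomal protein genes was 21.1.

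Genes often used as references in expression work were not among the 127. Of 20 such genes, 5 met the level minimum and each of those exceeded the ratio, namely Hprt (4.68), H2afz (8.52), Rplp0 (17.5), Rpl13a (21.1) and Eef1a1 (31.0, from 10.9 copies in oocytes to 339 in 16-cell embryos). The other 15 were under the minimum at 1 or more stages, among them Actb (stage means of 0.968 to 10.5), Gapdh (0 to 0.65) and Ppia (7.71 to 206). At later stages that the rule did not use, 117 of the 127 (92.1%) still lay within 3 times when the 32-cell stage was added, 108 (85.0%) when blastocyst cells were added instead and 82 (64.6%) with mESC. Spread between embryos of 1 stage was moderate, with a median SD over mean of 0.251.

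**Figure D2:**
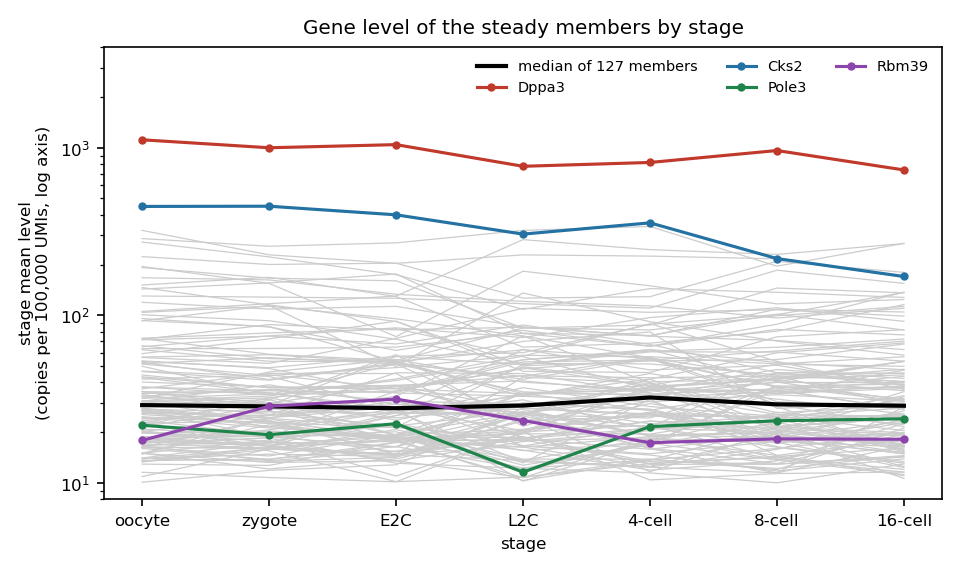
Levels of the 127 steady genes (y axis, mean copies per 100,000 UMIs, log scale) at 7 stages (x axis), with 1 line per gene and named genes in colour. The lines run close to level while covering about 10 to 1117 copies, with Dppa3 at the top.

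Isoforms were then compared within each gene, as shares of its isoform UMIs, between stages. A gene was called where the limma adjusted p of the gene was below 0.01 and that of at least 1 isoform was below 0.05. The 127 genes had 1 to 71 isoforms in the table (median 16, 2381 in all), 112 of them had enough UMIs and at least 2 isoforms of 5% or more in at least 1 of the comparisons below, and 73 were called in at least 1. Over all genes 494 of 2714 (18.2%) were called in at least 1, but the genes differed in how many comparisons they entered, with 558 of all genes and 92 steady ones tested from E2C to L2C. For the others no statement on shares can be made.

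Most calls at adjacent steps fell between the early and the late 2-cell embryo. There, 51 of 92 tested steady genes were called, through 157 isoforms, beside 49.3% of all 558 genes tested and 105 of 184 other abundant genes. Steady levels thus went with changed isoforms in 51 genes, and the share called by limma was near that of all genes. The remaining adjacent steps had few calls. From oocyte to zygote 0 of 107 were called by limma (0.393% of all genes), with 16 genes at an unadjusted p below 0.05 (11.2% of all) and 1 called by edgeR (0.184% of all). From zygote to E2C there were 7 of 103 (5.61% of all), from L2C to 4-cell 4 of 90 (2.2%), from 4-cell to 8-cell 6 of 95 (2.5%) and from 8-cell to 16-cell 1 of 97 (0.581%). Across the whole span, oocytes against 16-cell embryos, 54 of 96 were called (42.6% of all), and 39 of these 54 were among the 51 called from E2C to L2C, a comparison of other embryos. Over all 7 stages in 1 test it was 62 of 82 (72.1% of all).

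**Figure D3:**
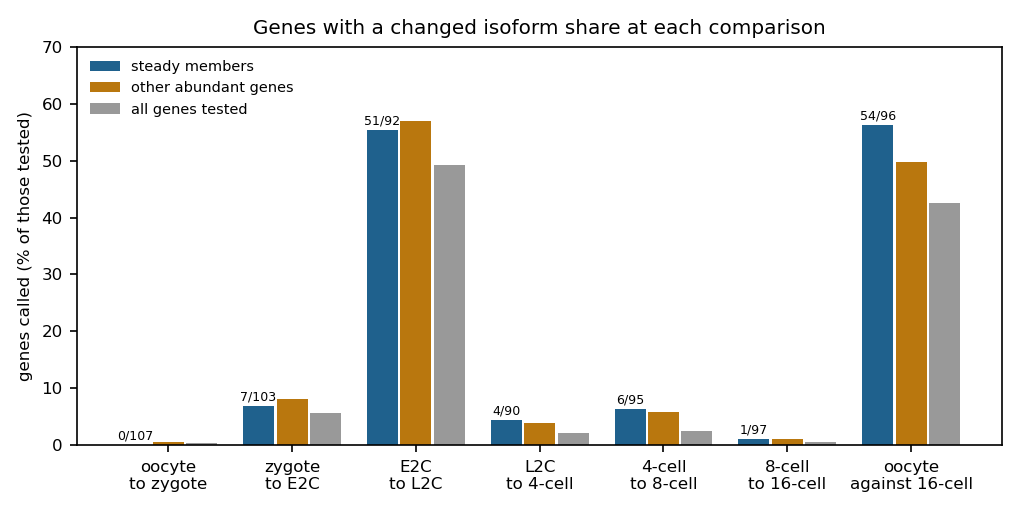
Percent of tested genes called for a change in isoform shares (y axis) at each comparison (x axis), for the steady genes, the other abundant genes and all genes. The bars of the step from E2C to L2C and of oocytes against 16-cell embryos stand far above the other adjacent steps for each group of genes, with 51 of 92 and 54 of 96 steady genes called.

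The number of calls depends on depth and on which libraries are used. After cells were thinned to 5000 UMIs, 2 of 11 steady genes were called from E2C to L2C, beside 11 of 34 over all genes. From E2C to L2C 43 of 89 steady genes were called in the 29 libraries alone, beside 209 of 500 over all genes. Of these 43, 42 were among the 51 (of which 49 could be tested there). All 51 were called with the library set as a term, beside 278 of 558 over all genes. For oocytes against 16-cell embryos 35 of 84 steady genes were called in the 29 libraries, beside 124 of 376 over all genes. All 35 were among the 54, of which 48 could be tested there. With edgeR 28 of 113 were called from E2C to L2C, 26 of them among the 51, beside 6.63% of 3260 genes. EdgeR was run with no minimum of UMIs per embryo, and over the 558 genes that limma also tested it called 26 of 92 steady genes beside 22.4% of all. For oocytes against 16-cell embryos it called 47 of 113 beside 14% of all, and 43 of 96 beside 35.4% over the genes tested by both. From zygote to E2C and at the 3 steps after L2C edgeR called 3, 0, 0 and 0 of 113, beside 1.63%, 0.0307%, 0.123% and 0.0307% of all genes. With isoforms of the same introns counted as 1, changes of ends alone are not seen. Then 23 of 75 steady genes were called from E2C to L2C, beside 148 of 504 over all genes. Of these 23, 22 were among the 51, of which 39 could be tested. Of the 127 genes, 22 had 10 UMIs in too few embryos for this step and 13 had fewer than 2 isoforms of at least 5%. The most abundant isoform of the gene became another one in 30 of 104 genes (28.8%) between E2C and L2C and in 35 of 108 (32.4%) between oocyte and 16-cell embryo, against 24.0% and 23.2% of all genes. A median of 23.2 and 22.2 percentage points of a gene's molecules was exchanged in these comparisons, beside 22.3 and 17.0 over all genes. At the other adjacent steps the median was 6.13, 12.8, 14.0, 15 and 10.1 points in order. Over all genes these medians were 10.2, 15.7, 13.6, 12.8 and 9.93 points.

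Pole3, a small histone-fold subunit of DNA polymerase epsilon (chr4:62522649-62525068, minus strand), changed most. Its 2029-base isoform PB.51728.2 held 75.0% to 100% of Pole3 UMIs in oocytes (mean 88.7% ± 8.0, SD, n = 10; median 89.2%) and 72.7%, 52.9%, 85.3% and 81.8% in the 4 E2C embryos that could be measured. It held 0%, 20.0% and 7.69% in the 3 L2C embryos and 12.8%, 5.15%, 25% and 13.6% in the 16-cell embryos. The ranges before and after the late 2-cell stage did not overlap. The 990-base isoform PB.51728.33, with a 3′ end 1091 bases upstream, was at 4.1% ± 5.1 (n = 10; 0 to 16.7%) in oocytes and at 81.4%, 84.5%, 66.7% and 77.3% in 16-cell embryos. The differences between oocytes and 16-cell embryos were -74.6 and 73.4 percentage points (limma adjusted p = 5.03e-09 and 2.3e-09). The gene level stayed between 11.6 copies (L2C) and 24.1 copies (16-cell). The short form made up 87.6% of 129 Pole3 UMIs in 32-cell cells (95% exact interval 80.6% to 92.7%, which covers counting error only).

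Rab11a, a GTPase of recycling endosomes (chr9:64715299-64737758, minus strand), had a level of 28.3 copies in E2C and 27.4 in L2C. The end of its 971-base isoform PB.76363.70 lay 104 bases upstream of that of PB.76363.46, close to the limit of 100 bases, with a shift of -1414 bases from PB.76363.14. PB.76363.70 was at 12%, 17.6%, 23.1%, 9.68% and 8.33% in the 5 E2C embryos and at 76.9%, 76.5%, 52.4%, 68.6% and 71.4% in the 5 measured L2C embryos. Every L2C embryo was above every E2C embryo. The rise was 55.0 points to L2C and, against oocytes, 61.9 points to 16-cell embryos (0.79 on the arcsine scale, SE 0.076, limma adjusted p = 3.12e-10). The 1128-base isoform PB.76363.46, whose end sequence holds the AATAAA shown above, fell from 32.1% ± 5.2 (n = 5) to 6.6% ± 3.4 (n = 5), with a limma adjusted p of 0.0037. In oocytes PB.76363.46 shared the gene with the 2385-base PB.76363.14, which ranged from 3.1% to 58.7% with a median of 24.6%. In the 29 libraries PB.76363.14 had an oocyte mean of 45.9%, against 30.5% over all oocytes. In mESC the short isoform was at 7.7% of only 13 UMIs.

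Ube2n, the ubiquitin-conjugating enzyme of lysine 63 chains (chr10:95515145-95545657, plus strand), had intermediate shares in E2C. The 1864-base isoform PB.8432.2 was at 72.3% ± 6.5 (n = 10; 61.1%, median 72.2%, 83.7%) in oocytes, at 28.9% to 56.0% in E2C and at 1.56% to 18.2% in L2C embryos. The 1648-base isoform PB.8432.4, with an end 215 bases upstream, rose from 11.7% ± 5.1 (n = 10) in oocytes to 71.7% ± 5.7 (n = 4) in 16-cell embryos, where the 4 values were 70.5%, 67.0%, 80.0% and 69.2%. That difference of 60.0 points was 0.67 on the arcsine scale (SE 0.05, limma adjusted p = 8.38e-13). The oocyte and 16-cell ranges did not overlap for either isoform. In mESC PB.8432.4 reached 90.2% of 41 UMIs (95% exact interval 76.9% to 97.3%, which covers counting error only). As noted, Ube2n was at the edge of the rule, with its highest level (75.4 copies) in L2C.

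Cwc15 (chr9:14500617-14510577, plus strand) combined 1 of the steadiest levels with 1 of the sharpest exchanges. The 1322-base isoform PB.74570.1 was at 72.9%, 58.7%, 78.1%, 75.0% and 79.6% in E2C embryos and at 9.62%, 17.6%, 12.5%, 15.3% and 8.57% in L2C embryos. The 972-base isoform PB.74570.12, ending 205 bases upstream, was at 6.25%, 0%, 0%, 1.67% and 4.08% in E2C and at 65.4%, 51.0%, 57.5%, 59.3% and 70.0% in L2C. The short form thus went from nearly absent to the leading isoform within the 2-cell stage, a rise of 58.2 points (0.78, SE 0.057, limma adjusted p = 3.2e-13), while the gene level was 36.6 copies in E2C and 47.9 in L2C. It remained at 47.8% to 61.8% in 16-cell embryos.

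Fam104a (chr11:113661319-113684155, minus strand) was called at this step with a limma adjusted p of 8.85e-15 for the gene. The 1462-base PB.14584.7 fell from 80.2% ± 2.5 to 22.3% ± 4.8 (n = 5 each), and the 828-base PB.14584.63 rose from 5.0% ± 1.9 to 72.4% ± 3.0, with E2C values of 2.82% to 8.00% and L2C values of 68.8% to 76.6%. The end lay 338 bases upstream. The gene's level was 51.3 copies in E2C and 43.2 in L2C.

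**Figure D4:**
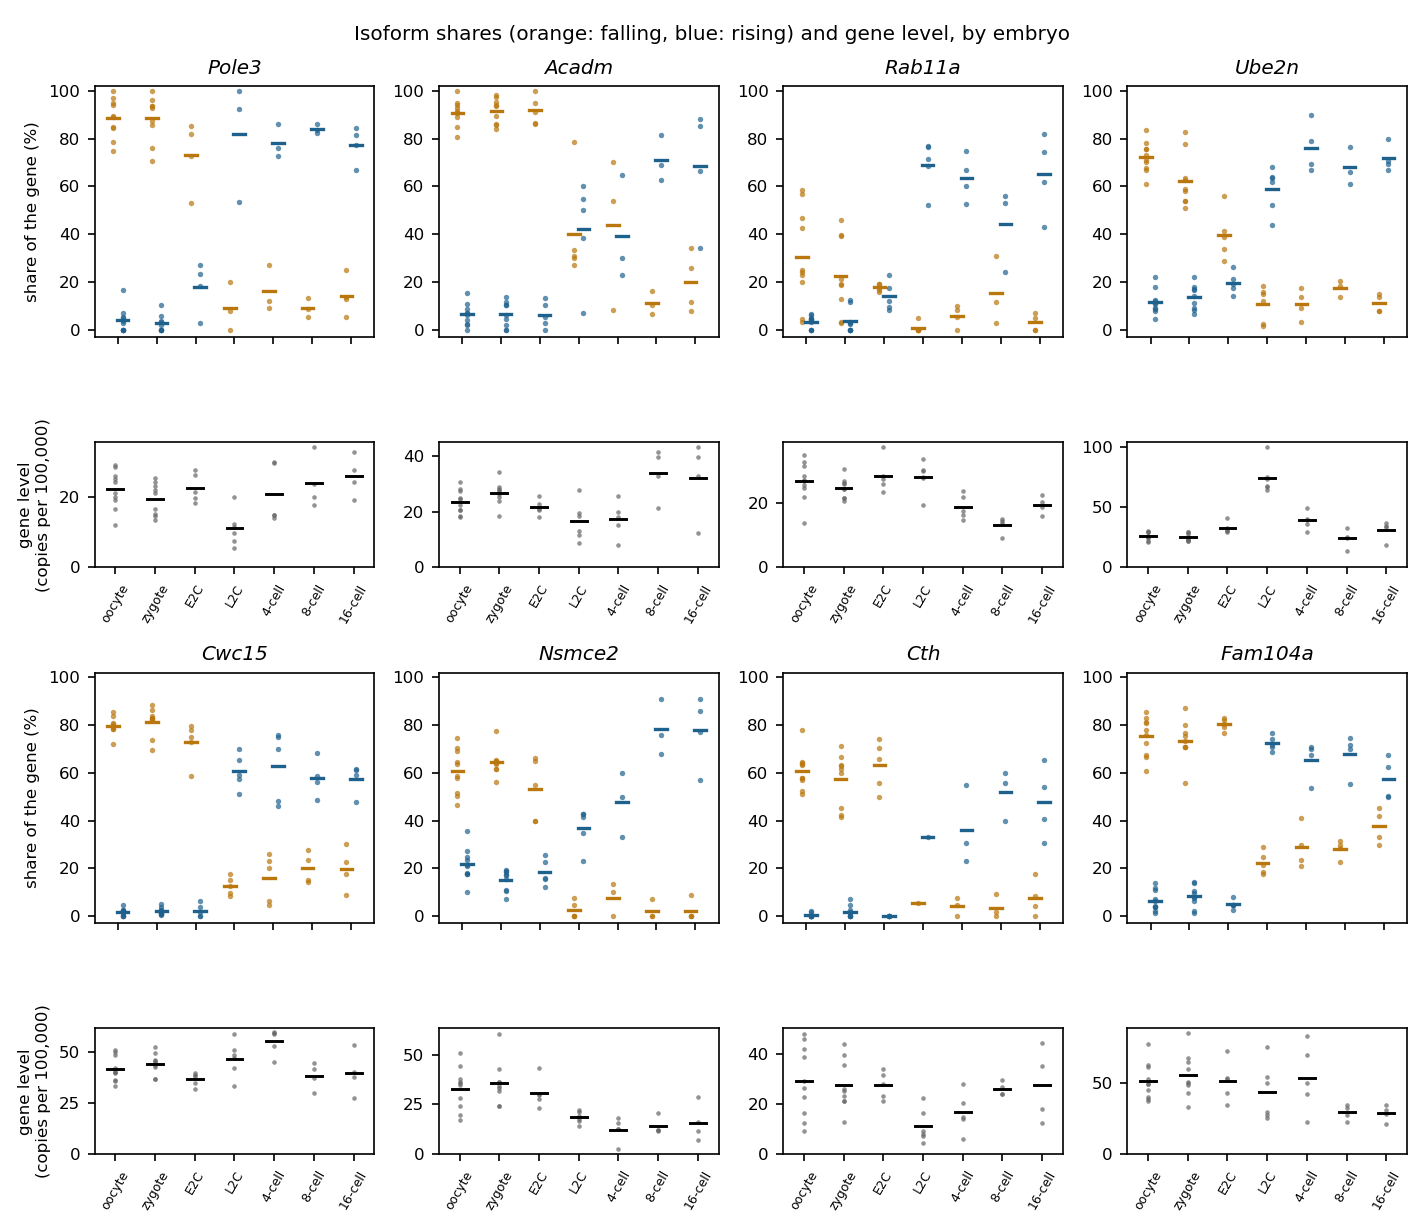
Isoform shares (upper panels, percent of the gene's UMIs) and gene levels (lower panels, copies per 100,000 UMIs) of 8 steady genes at 7 stages, with 1 point per oocyte, zygote or embryo and bars at the means. The falling isoform (orange) and the rising one (blue) cross between E2C and L2C or soon after, as in Cwc15, where the falling isoform went from 72.9% to 12.7% and the gene level from 36.6 to 47.9 copies.

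From E2C to L2C the 3′ end became shorter in most pairs of the steady genes. Of the 51 genes called from E2C to L2C, 41 had both a falling and a rising isoform called, 7 only a rising and 3 only a falling one. Between the leading isoforms of the 41 pairs, the 3′ end of the rising one lay more than 100 bases upstream in 34, more than 100 bases downstream in 3 and within 100 bases in 4, with a median shift of -247 bases. With a limit of 200 bases, 23 were shorter, 2 longer and 16 within. Over all genes with such a pair, 115 of 204 were shorter and 26 longer at 100 bases (91 and 11 at 200 bases), and the median shift was -108.5 bases. Among the other abundant genes 45 of 83 were shorter at 100 bases. The difference between the steady genes and the rest was not tested. Against 16-cell embryos the oocyte pairs gave 34 of 46 shorter and 5 longer, beside 110 of 205 shorter and 48 longer over all genes. At the adjacent steps with few pairs the end was longer instead, in 1 of 1 steady gene from zygote to E2C (18 of 25 over all genes), 1 of 1 from L2C to 4-cell (2 of 4) and 3 of 3 from 4-cell to 8-cell (4 of 6).

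**Figure D5:**
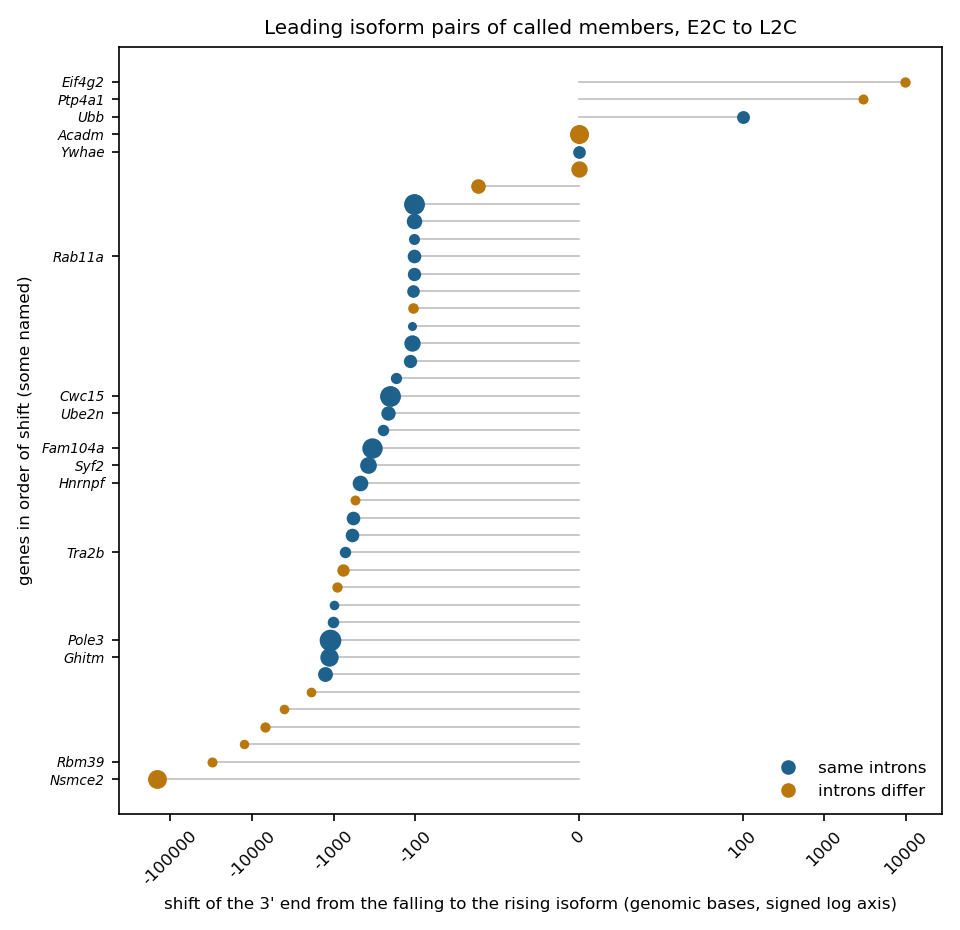
Shift of the 3′ end from the falling to the rising leading isoform (signed log axis, bases, negative for a shorter end) in 41 steady genes from E2C to L2C, with genes in order of the shift, some of them named, and the diameter of a point growing with the fall in share. Points to the shorter side number 34 at a limit of 100 bases, and points to the longer side 3.

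In 26 of the 41 pairs both isoforms had the same introns, so that only the ends differed, and 24 of these 26 became shorter, 1 longer, and in 1 only the start differed. With a limit of 200 bases 14 of the 26 were shorter, beside 53 of 90 over all genes. Over all genes 90 of 204 pairs had the same introns, with 73 shorter and 16 longer. Ghitm, a protein of the mitochondrial inner membrane, exchanged its 2570-base isoform (fall of 48.0 points) for a 1425-base one (rise of 41.3 points) with an end 1124 bases upstream. Tra2b, an SR-like splicing activator (chr16:22244549-22266005), ended 718 bases upstream in its rising isoform, whose share was 3.0% in E2C, 17.1% in L2C and 39.1% in 4-cell embryos. Syf2, a spliceosome-associated protein, had changes of -40.3 and 30.6 points with a shift of -376 bases, and Tpd52l2 had -25.3 and 32.9 points with -587 bases. The gene p values of these genes (limma, adjusted) lay between 6.2e-09 and 0.00027. Selenok, a selenoprotein of the endoplasmic reticulum, had a shift of -104 bases, close to the chosen limit of 100 bases. In 30 of the 41 pairs (73.2%) both isoforms held the annotated start and stop codons (their coordinates lay in the isoform's exons), near the 68.1% over all genes.

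The end became longer in Ubb, Eif4g2 and Ptp4a1, and in 4 more pairs it lay within 100 bases. In Ubb the 1898-base isoform PB.11700.1 rose from 16.4% in E2C to 39.7% in L2C embryos and the 1162-base PB.11700.14 fell from 80.8% to 58.9% (limma adjusted p = 6.8e-05 for the gene), as its level went from 130 to 283 copies. Ubb was also among the 3 genes that differ between the library sets. PB.11700.1 was at 24.7% to 31.1% in the oocytes of the 14 libraries and at 9.63% to 20.8% in the others. In the 29 libraries alone it went from 13.6% to 36.1%. The end of the rising isoform lay 9691 bases downstream in Eif4g2, a translation factor related to eIF4G, and 2995 bases downstream in Ptp4a1, a protein tyrosine phosphatase. Ywhae, a 14-3-3 adaptor, was the gene in which only the start differed. There PB.12349.12 fell from 22.6% to 1.6% and PB.12349.10 rose from 29.8% to 44.3%.

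Changes of start and of exon content made another group. Acadm, the medium-chain acyl-CoA dehydrogenase of fatty acid oxidation (chr3:153922357-153944632, minus strand), was mainly a 1131-base molecule of 3 exons (PB.49988.3, an incomplete splice match) in oocytes, at 90.9% ± 5.3 (n = 10; 80.8%, median 91.2%, 100%). In 16-cell embryos that isoform was at 25.8%, 34.1%, 8.00% and 11.8%, and the 2108-base molecule of 12 exons, PB.49988.4, was at 66.3%, 34.1%, 88.0% and 85.3%. The 12-exon isoform rose by 62.0 points (0.76, SE 0.10, limma adjusted p = 3.36e-07). Both had the same 3′ end, and the start of PB.49988.4 was shifted by -14927 bases (upstream). Only the late one thus held the annotated start codon. The authors propose that some molecules lacking the start codon might come from incomplete reverse transcription, which was not tested here. In L2C replicate 4 the short form was still at 78.6%, against 27.3% to 33.3% in the other 4. In the intact oocytes of the separate run PB.49988.3 was at 51.9% to 71.4%.

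Cth, cystathionine gamma-lyase of cysteine synthesis (chr3:157894248-157925077, minus strand), had the same pattern. The 1067-base, 3-exon PB.50044.1 was at 61.0% ± 7.6 (n = 10; 51.1%, median 60.6%, 77.8%) in oocytes and at 17.7%, 0%, 4.35% and 8.57% in 16-cell embryos. The 1846-base, 12-exon PB.50044.4 was at 0 to 2.3% in oocytes and 0% in each of the 5 E2C embryos, and at 30.6%, 40.9%, 65.2% and 54.3% in 16-cell embryos (difference 47.3 points, 0.73, SE 0.059, limma adjusted p = 4.28e-11). The full-length form of Cth was thus rare before L2C, while the gene level was 29.1 copies in oocytes and 22.4 in 16-cell embryos. Only 1 L2C embryo had enough Cth UMIs, so the step from E2C to L2C was not tested. Among the pairs of oocytes against 16-cell embryos, 9 of 46 had the start codon only in the rising isoform and 3 the stop codon only in the rising one, and at the step from E2C to L2C 7 of 41 had the start codon only in the rising one. Over all genes these were 27 and 21 of 205 and 37 of 204.

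Nsmce2, a subunit of the SMC5/6 complex (chr15:59374247-59601684, plus strand), passed through an intermediate. PB.26711.50, with a junction outside the annotation, was at 60.8% ± 9.3 in oocytes (n = 10; 46.7%, median 61.3%, 74.6%), at 65.2%, 40.0%, 54.9%, 66.1% and 40.0% in E2C and at 4.76%, 0%, 7.69%, 0% and 0% in L2C embryos. The 812-base PB.26711.6 was at 0% in all 5 E2C embryos, at 28.6%, 30.0%, 30.8%, 25% and 38.1% in L2C (rise of 30.5 points, 0.58, SE 0.04, limma adjusted p = 1.36e-13) and at 3.57%, 4.55% and 4.00% in 8-cell embryos. The fully spliced annotated isoform PB.26711.3 went from 18.5% in E2C to 37.1% in L2C and 78.3% ± 11.7 (n = 3) in 8-cell embryos. It rose by 30.5 points from the 4-cell to the 8-cell stage (limma adjusted p = 0.028). The level of Nsmce2 was 33.0 copies in oocytes and 14.2 in 16-cell embryos.

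Rbm39, a splicing factor related to U2AF (chr2:156147239-156180238, minus strand), had an isoform with its highest share at L2C. PB.44777.230, an incomplete splice match of 929 bases, was at 0% in all 5 E2C embryos, at 33.3%, 35.0%, 58.8%, 63.2% and 30.0% in L2C and at 0%, 15% and 4.76% in 4-cell embryos. It was at 0%, 0% and 2.63% in 8-cell and at 6.90%, 14.3%, 10.5% and 11.8% in 16-cell embryos. Its fall from L2C to 4-cell was 37.5 points (-0.52, SE 0.066, limma adjusted p = 8.24e-06). At the 4-cell stage the full splice match of 17 exons, PB.44777.109, was at 54.5%, 25% and 28.6%, after 0 to 13.3% in L2C embryos. The mean level of Rbm39 was 23.6 copies in L2C and 17.4 in 4-cell embryos.

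At the earlier step, from zygote to E2C, the 7 genes called included 4 splicing factors out of 12 tested in the list, beside 5.61% of all genes. In 3 of them short molecules that lack the annotated stop codon fell. PB.44777.225 of Rbm39 (564 bases) was at 5.36% to 46.2% in zygotes (median 30.4%) and at 4.17%, 5.88%, 7.69%, 0% and 10.0% in E2C embryos (limma adjusted p = 0.012). PB.40267.95 of Rbm17, a protein of 3′ splice site choice, was at 7.84% to 52.4% in zygotes (median 38.5%) and at 0%, 5.26%, 2.86% and 0% in the 4 measured E2C embryos (limma adjusted p = 0.00054). PB.62103.276 of Hnrnpa2b1 was at 3.4% to 21.1% in zygotes and 0% in all 5 E2C embryos (limma adjusted p = 0.000183). In the other, Snrpd1, a core protein of snRNPs, PB.35277.72 rose by 3.67 points. These short molecules were rarer in the 29 libraries, with oocyte means of 10.3% for PB.44777.225, 17.0% for PB.40267.95 and 1.25% for PB.62103.276 against 21.3%, 28.0% and 3.25% over all oocytes. Their zygote means there were 22.0%, 22.4% and 8.95%. PB.62103.276 was at 1.25% or less at every other stage in these libraries. PB.35277.72 of Snrpd1 was there at 5.31% in E2C and 1.65% or less at every other stage. The compared values thus also brought PB.62103.276 and PB.35277.72 past the 5% minimum, so the calls of Hnrnpa2b1 and Snrpd1 are given as a description. In the 29 libraries only Rbm39 and Hnrnpa2b1 were still called, and Rbm17 and Snrpd1 were not. Rbm17 was also lost with untransformed shares and without E2C replicate 1. Snrpd1 was lost with the mean of cell shares, with a required change in share of 0.1 and without E2C replicate 4. Without incomplete splice matches 0 of 80 steady genes were called from zygote to E2C, beside 31 of 877 over all genes. With edgeR Rbm17 was called and Rbm39, Hnrnpa2b1 and Snrpd1 were not. In the intact oocytes of the separate run PB.44777.225 was at 0 to 3.2%. PB.40267.95 was at 0%, a value also given to isoforms that are not listed for that run.

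Few steady genes were called after the late 2-cell stage, although 27 of 90, 25 of 95 and 8 of 97 were at an unadjusted limma p below 0.05 at the 3 steps (20.1%, 18.7% and 8.14% of all genes). From L2C to 4-cell the calls beside Rbm39 were Bcas2 of the PRP19 splicing complex, in which PB.48725.19 fell from 9.7% to 0%, Cct8, a subunit of the CCT chaperonin, with a fall of 9.1 points, and Anapc10 of the anaphase-promoting complex, in which PB.72292.66 rose from 0% to 5.5%. Among the other settings that tested them, Cct8 was called in 4 of 12 and Anapc10 in 6 of 11. Bcas2 was called in 7 of 10 and Rbm39 in 9 of 10. In the 29 libraries PB.48725.19 of Bcas2 was at 9.71% in L2C and 0.862% or less at every other stage. PB.31040.55 of Cct8 was there at 10.0% in L2C and 4.64% or less at every other stage. In these libraries only the compared L2C values reached the 5% minimum, so the calls of Bcas2 and Cct8 are given as a description. From 4-cell to 8-cell the called genes included Hnrnpdl (fall of 15.8 points in PB.58004.52), Nsmce2, Nap1l1, Anapc10 and Naa50, an N-terminal acetyltransferase. In the 29 libraries PB.58004.52 was at 18.75% in 4-cell embryos and 3.125% or less at every other stage. There only the compared 4-cell values reached the 5% minimum, so the call of Hnrnpdl is given as a description. Naa50 had a limma adjusted p of 2.74e-10 for the gene, with a rise of 7.05 points in PB.30336.33. In the 29 libraries this isoform was at 7.95% at the 8-cell stage and 0.98% or less at every other stage. The compared values thus also passed it through the 5% minimum. Nap1l1 was called in 6 of 13 other settings and in 18 of 24 fits that left out 1 embryo. From 8-cell to 16-cell Naa50 alone was called, through PB.30336.34, at 2.63%, 5.56% and 6.90% in 3 8-cell embryos and 0% in 3 16-cell embryos. In the 29 libraries its mean share was 0% at every other stage. The 8-cell values thus brought it past the 5% minimum and were then compared with 0%, so the call is given as a description. That call was lost when isoforms with the same introns were counted as 1. With edgeR no steady gene was called in these 3 steps. In the 29 libraries 1 of 74, 1 of 51 and 0 of 54 steady genes were called. The counts over all genes there were 10 of 854, 5 of 516 and 0 of 575. Of the steady genes called in all libraries, 2, 2 and 0 could be tested there.

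By function, 5 of 6 tested genes of the ubiquitin and ubiquitin-like system were called from E2C to L2C (among them Rbx1, Ubb, Ube2n and Ufm1). Splicing factors were called in 5 of 8 (Hnrnpf, Hnrnpu, Rbm39, Snrpd1 and Tra2b) and in 7 of 11 between oocytes and 16-cell embryos, where 42.6% of all genes were called. Hnrnpf, the gene with the steadiest level, had changes of -35.2 and 15.4 points (limma adjusted p = 1.6e-08 for the gene). Chaperones were called in 3 of 7 (Cct8, Dnaja2 and Hspa14), cell cycle genes in 2 of 6 (Anapc10 and Cks2), translation factors in 1 of 3 (Eif4g2) and genes of oxidative phosphorylation in 0 of 5. In Anapc10, PB.72292.2 fell from 46.4% to 7.9% and PB.72292.27 rose from 3.7% to 26.8% with the same end. The lists hold few genes each, and 49.3% of all genes were called at this step. Several of these calls depended on the setting. In the 29 libraries Rbx1, Ufm1 and Dnaja2 were not called, and edgeR did not call Ubb, Ufm1, Dnaja2, Hspa14, Snrpd1, Tra2b or Cks2. Of 24 fits that left out 1 embryo, Dnaja2 was called in 11, Ufm1 in 19 and Cks2 in 20. Rbx1 was not called without L2C replicate 1, nor Hspa14 without E2C replicate 2.

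A smaller group kept its isoform shares close. Of 50 steady genes that could be measured at all 7 stages with at least 2 isoforms of 10% or more, the median of the largest change in a stage mean share was 35.6 points. It was smallest in Snrpf, an Sm protein of snRNPs (chr10:93583029-93589706, minus strand), at 7.17 points. The 549-base isoform PB.8338.21 of Snrpf was at 78.9% ± 3.1 in oocytes (n = 10), 77.8% ± 5.4 in L2C and 76.7% ± 6.0 in 16-cell embryos (n = 4), although the level of the gene went from 146 to 67.4 copies. Erh, a small conserved nuclear protein, had 8.56 points, with PB.17337.7 at 70.4% to 76.0%, and a minor isoform of it, PB.17337.75, was called with a rise of 7.9 points from E2C to L2C. This call of Erh was lost with edgeR, with the embryo number as a block, with a required change in share of 0.1, with isoforms of the same introns counted as 1, and without E2C replicate 2, E2C replicate 5 or L2C replicate 6 (limma adjusted p up to 0.0122). Hnrnpc, which binds uridine tracts of nascent RNA, had 10.5 points. Dppa3 had 12.3 points over all libraries, a value that pools the library sets. In the 29 libraries its 1056-base PB.64061.14 went from a mean of 93.6% (93.3% to 93.9%) in E2C to 79.0% (76.5% to 81.6%) in L2C and PB.64061.11 from 2.56% (1.80% to 3.56%) to 9.88% (8.53% to 10.8%), without overlap, so its shares were not steady there. PB.64061.35, a 726-base isoform of Dppa3, rose from 0.9% to 7.6% from E2C to L2C (limma adjusted p = 2.6e-08).

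The mean length of a gene's molecules changed in fewer genes than their isoforms did. Between oocytes and 16-cell embryos it changed in 25 of 108 steady genes (limma adjusted p below 0.01), beside 17.2% of all genes, and was longer in 5 (5.22% of all were longer) and shorter in 20 (12% of all were shorter). The shortest relative to oocytes was Pole3, from 1959 ± 64.8 bases (SD, n = 10) to 1152 ± 95.8 (n = 4), a log2 difference of -0.77 (SE 0.053). Rab11a went from 1570 to 1017 bases and Tpd52l2 from 1641 to 1160. The longer ones were led by Cth, from 1017 ± 16.6 to 1542 ± 131 bases (log2 difference 0.60, SE 0.041), Acadm, from 1206 to 1816, and Hnrnpa2b1, from 856 to 1216. Without 16-cell replicate 2 the counts were 10 longer and 14 shorter. Over all 7 stages in 1 test the length changed in 40 of 94 steady genes, beside 35.7% of all genes. The share of UMIs in full splice matches over all steady genes was 86.3% in oocytes, 82.0% in L2C and 86.3% in 16-cell embryos. Over all genes it was 73.8%, 76.8% and 81.9% at these stages.

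The separate run of intact, 1/2 and 1/4 oocytes gave a check of the oocyte side of these exchanges in other oocytes. PB.51728.33 of Pole3 and PB.76363.70 of Rab11a, the isoforms that rose later, were not among the isoforms of the table used for it. In the 4 intact oocytes PB.51728.2 of Pole3 was at 29.5% to 43.9%, lower than the 75.0% to 100% of the oocytes above. PB.8432.2 of Ube2n was at 39.0% to 42.6% and PB.8432.4 at 3.7% to 7.5%. PB.76363.46 of Rab11a, at a mean of 45.9% over all the oocytes above and 32.9% in those of the 29 libraries, was at 0 to 6.7%. The leading oocyte isoforms of Pole3 and Ube2n thus had lower shares in this run. The run was processed into its own table, and levels were not compared across the tables.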

How the data were processed

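The authors called consensus reads, assigned cell barcodes and UMIs, aligned molecules to mouse build mm10 and collapsed them into isoforms, which they classed against the annotation (full splice match, incomplete splice match, other combinations) and kept where seen in at least 5 cells. The gene and isoform tables deposited by the authors hold copies per 100,000 UMIs of a cell, a CPM-type unit divided by 10, and whole reads were recovered from them in all 161 cells (100% of values within 0.1 of a whole UMI count). The table deposited by the authors for the split oocytes holds UMI counts per isoform. UMIs were summed over the cells of each oocyte, zygote or embryo, and 0 columns of cells were left out of the column map.

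Gene levels, which chose the genes, were averaged over cells and not tested. Shares of isoforms were tested in embryos with at least 10 isoform UMIs of the gene, for isoforms of at least 5% mean share at 1 or more stages, with at least 3 embryos per stage, on the arcsine square root of the share with limma 3.58.1 (R 4.3.3, moderated test with trend, all 7 stages in 1 fit, 2-sided, Benjamini-Hochberg adjustment over all genes). The 5% minimum also counted the stages being compared, so an isoform could pass it through 1 of them. The p of a gene combined its isoforms by Simes' method. Mean isoform length was tested on the log2 scale in the same way. The edgeR 4.0.16 likelihood ratio test of isoform use on recovered counts was an alternative. The limma test of isoform shares was tried on simulated counts with known exchanges. The length test, edgeR and the other steps were not. Embryos of 1 stage may share a mother or a day, so p-values measure the spread between these embryos.

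Ends were compared by the coordinates of the deposited isoform annotation, and end sequences came from GENCODE M21 transcripts where an annotated exon held the last 50 bases of the isoform. Shares given for cells without a named embryo have exact Clopper-Pearson 95% intervals, which cover counting error only. Near-identical gene copies, such as Sap18 and Sap18b, may share reads. Named genes were the 8 with the highest mean, the 8 with the smallest ratio, up to 4 called genes with the smallest adjusted p at each adjacent step, the 8 with the largest share difference between oocytes and 16-cell embryos, the 4 with the smallest range of shares and a list of reference genes, and others were named after their values were seen. Some genes that this rule names are not reported here. The genes and lists were chosen with earlier results of these data known. Python 3.11.15, pandas 2.3.3, numpy 2.4.6 and scipy 1.17.1 were used.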

Additional observations from a re-analysis of the deposited data

Results flagged for a closer look

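Among 87 groups of 4 to 10 oocytes, zygotes or embryos examined for isoforms of the named genes, 7 held 1 value far from the rest. For normally distributed values chance alone gives about 1 in 20, which does not apply to groups whose other shares are all 0%. In oocyte 6, PB.51728.33 of Pole3 was at 16.7%, with the next at 7.14%. In L2C replicate 4, PB.49988.3 of Acadm was at 78.6%, with the next at 33.3%, and in the same embryo PB.76363.14 of Rab11a was at 4.76%, with 0% in the other 4. PB.74570.12 of Cwc15 was at 4.92% in oocyte 3 (next 2.53%). PB.26711.50 of Nsmce2 was at 77.4% in zygote 9 (next 65.5%) and at 8.77% in 16-cell replicate 1 (0% in the other 3). PB.50044.1 of Cth was at 77.8% in oocyte 9 (next 64.7%). L2C replicate 4 was the only embryo named more than once, and its reason was not tested.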

How the results depend on the processing

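No setting that changed the shares themselves turned the direction of the leading called isoform of a gene named for its size of change. They were 20 UMIs, cell means, thinning, no incomplete splice matches, the 29 libraries and fits without an embryo of a compared stage. Direction was read from raw stage means, which the transform, weights, added terms, share limits and embryos of other stages leave unchanged. With edgeR and with same-intron isoforms as 1, and where a gene was not tested, it was not read. From oocytes to 16-cell embryos a pair of Dppa3 isoforms that were not called did turn with the library set, PB.64061.11 from 19.0% to 15% over all libraries but 2.61% to 7.65% in the 29, and PB.64061.14 from 78.1% to 78.7% but 94.0% to 85.6%. The counts of called steady genes moved as follows, beside the values in the report, with called of tested over all genes in brackets. From oocyte to zygote, 1 gene was called with a minimum of 20 UMIs (2 of 1034) and with no minimum share (10 of 1855). The count was also 1 with embryos weighted by UMIs (6 of 1780) and with edgeR (6 of 3260). From zygote to E2C there were 4 of 78 with 20 UMIs (38 of 682). Thinning cells to 5000 UMIs left 0 of 9 (0 of 86), and leaving out incomplete splice matches 0 of 80 (31 of 877). The 29 libraries gave 2 of 99 (25 of 1087) and edgeR 3 of 113 (53 of 3260). From E2C to L2C there were 2 of 11 after thinning (11 of 34). Same-intron isoforms as 1 gave 23 of 75 (148 of 504) and edgeR 28 of 113 (216 of 3260). From L2C to 4-cell there were 2 of 54 with 20 UMIs (8 of 539) and 0 of 16 after thinning (0 of 119). A required change of 0.1 gave 1 of 90 (9 of 1092), and no incomplete splice matches 2 of 71 (10 of 802). In the 29 libraries it was 1 of 74 (10 of 854) and with edgeR 0 of 113 (1 of 3260). From 4-cell to 8-cell there were 2 of 57 with 20 UMIs (11 of 564) and 0 of 30 after thinning (1 of 263). The 29 libraries gave 1 of 51 (5 of 516) and edgeR 0 of 113 (4 of 3260). From 8-cell to 16-cell there were 0 with 20 UMIs (0 of 637), with cell means (4 of 1204) and after thinning (1 of 428). It was also 0 with a change of 0.1 (2 of 1204) and with same-intron isoforms as 1 (1 of 1118). The 29 libraries (0 of 575) and edgeR (1 of 3260) gave 0 as well. Without incomplete splice matches there were 2 of 87 (5 of 954). Oocytes against 16-cell embryos gave 4 of 10 after thinning (14 of 57) and 16 of 80 with same-intron isoforms as 1 (121 of 546). In the 29 libraries 35 of 84 were called (124 of 376). Over all stages there were 39 of 47 with 20 UMIs (106 of 142) and 2 of 6 after thinning (9 of 24). Same-intron isoforms as 1 gave 32 of 66 (154 of 291) and the 29 libraries 31 of 49 (96 of 171). For length, thinning left 2 of 13 for oocytes against 16-cell embryos (7 of 64) and 2 of 9 over all stages (6 of 28). The 29 libraries gave 19 over all stages. The rule itself gave 56 genes at a ratio of 2, 231 at a minimum mean of 5 and 61 at a minimum mean of 20. Leaving out 1 embryo of E2C or later (no oocyte or zygote was left out, so the first range says nothing of stability) gave 0 to 0, 4 to 8 (4 without E2C replicate 2), 43 to 52, 0 to 8 (0 without 4-cell replicate 5), 1 to 9 (1 without 8-cell replicate 1, 2 or 4) and 0 to 2 calls (0 without 8-cell replicate 1, 2 or 4 or 16-cell replicate 1, 2 or 3) at the 6 adjacent steps in order, 41 to 56 for oocytes against 16-cell embryos, 40 to 64 over all stages (40 without 8-cell replicate 1 or 2), 23 to 27 and 27 to 43 (27 without 8-cell replicate 1 or 2) for length, and 122 to 140 steady genes. Same-intron counting removes end changes by construction, thinning left few genes to test (from E2C to L2C 6 of the 51, of which 2 were called; 1 cell was shallower than 5000 UMIs and was left out), and for the other settings the cause was not tested. Isoforms seen in few UMIs limit the shares in the shallowest embryos (10965 isoform UMIs in L2C replicate 1 and 17290 in 4-cell replicate 2). The alternatives with same-intron isoforms, incomplete splice matches, the library sets, the weights and the embryo number were chosen after seeing the data. Embryos share numbers in the column names, with no stated meaning. Isoform shares of same-numbered embryos deviated from their stage means with a mean correlation (across isoforms, which are not independent) of 0.059, -0.0014, 0.10, 0.095, 0.17 and 0.16 at the adjacent steps in order, and not every such pair was over 0.1 at any step. With the number as a replicate block the calls were 0, 7, 46, 3, 4 and 1 at these steps, 46 for oocytes against 16-cell embryos and 59 over all stages. In the same order, 3, 64, 236, 19, 17, 2, 217 and 231 of all genes were called with this block. With the library set as a term the calls were 0, 5, 51, 5, 6 and 1 at the adjacent steps, 52 for oocytes against 16-cell embryos and 61 over all stages. The counts over all genes with this term were 6, 70, 278, 25, 24, 7, 248 and 240 in the same order.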
